A study of Mus musculus with 2 samples.

Results

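The marginal zone B cell is a B cell of the spleen that answers blood-borne antigen, and 10 genes tied to its formation and surface make up the set described here. They are the lipid-presenting molecules Cd1d1 and Cd1d2, the receptor Notch2 with its nuclear partner Rbpj and the Notch-responsive genes Dtx1, Hes1 and Asb2, and the surface or membrane genes Cd9, Myof and S1pr3. They were matched by symbol to the probe table of the platform, which gave 18 probe sets of the 45037 on the array besides control probe sets, with at least 1 probe set for each of the 10 genes. The rule names the genes and uses no measured value, but the set was proposed with earlier results of these arrays known.

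RNA came from B cells of the NOD strain, inbred mice prone to autoimmune diabetes. One group carried human AIRE, a transcriptional regulator of thymic epithelium, under an MHC class II promoter, which is active in antigen-presenting cells at large and not in B cells alone. The control group was non-transgenic on the same NOD background. Both groups were 8 weeks old, and in both the cells lacked Thy1 and CD11c and carried B220. The labels give 2 mice for each of the 2 arrays, 1 array per group. The organ and the number of founders behind the transgenic line are not given in the sources used here. There is therefore no replicate spread, no test and no p-value, and each ratio describes these 2 arrays and not the genotypes. In bulk RNA of this kind, fewer cells of a type and less RNA per cell cannot be told apart.

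CD1d is a relative of MHC class I that holds lipids in place of peptides and shows them to invariant natural killer T cells. Marginal zone B cells carry it at high levels, which together with CD21 sets them apart from follicular B cells. They form when Notch2 on a B cell meets the ligand Dll1 on splenic stroma. Cleavage by ADAM10 and gamma-secretase then frees the intracellular part of Notch2, which binds RBPJ on DNA with Mastermind proteins and turns on genes such as Dtx1 and Hes1. NOD mice are known for defects in invariant natural killer T cells and for an enlarged marginal zone.

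The largest difference in the set was in Cd1d2, at 6.75 times the non-transgenic intensity on the transgenic array, but it came from a dim probe set. Cd1d1 was higher by 1.39-fold and 1.22-fold in its 2 probe sets. Notch2 was lower on the transgenic array by 1.69-fold in its brighter probe set, while Rbpj was higher by 1.53-fold to 1.75-fold in its 3 probe sets and Hes1 by 1.44-fold. Dtx1 differed by at most 1.32-fold and Cd9 by 1.13-fold, and the 3 probe sets of S1pr3 did not share a direction.

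Intensities below are the deposited linear values after the medians of the arrays were aligned, and ratios are log2 of transgenic over non-transgenic. Values under 25.1, the lower quartile over both arrays, were set to it. A probe set was kept when its higher value reached 98.8, the median over both arrays, and this filter passed 16 of the 18 probe sets. Among them 1 was higher by 2-fold or more with the transgene (Cd1d2) and 1 was lower by as much (a probe set of S1pr3). Over all 23987 probe sets above the filter, 4.71% passed 2-fold on the higher side and 4.04% on the lower, so the members' shares of 6.25% each lay near the background. The median ratio of the 16 was 0.34, with 10 above 0 and 6 below. Over all probe sets above the filter the median was 0.15 and 61.2% lay above 0, so the members' split was near that share. Without the alignment these medians were 0.12, over 17 member probe sets that then passed, and -0.03.

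**Figure D1:**
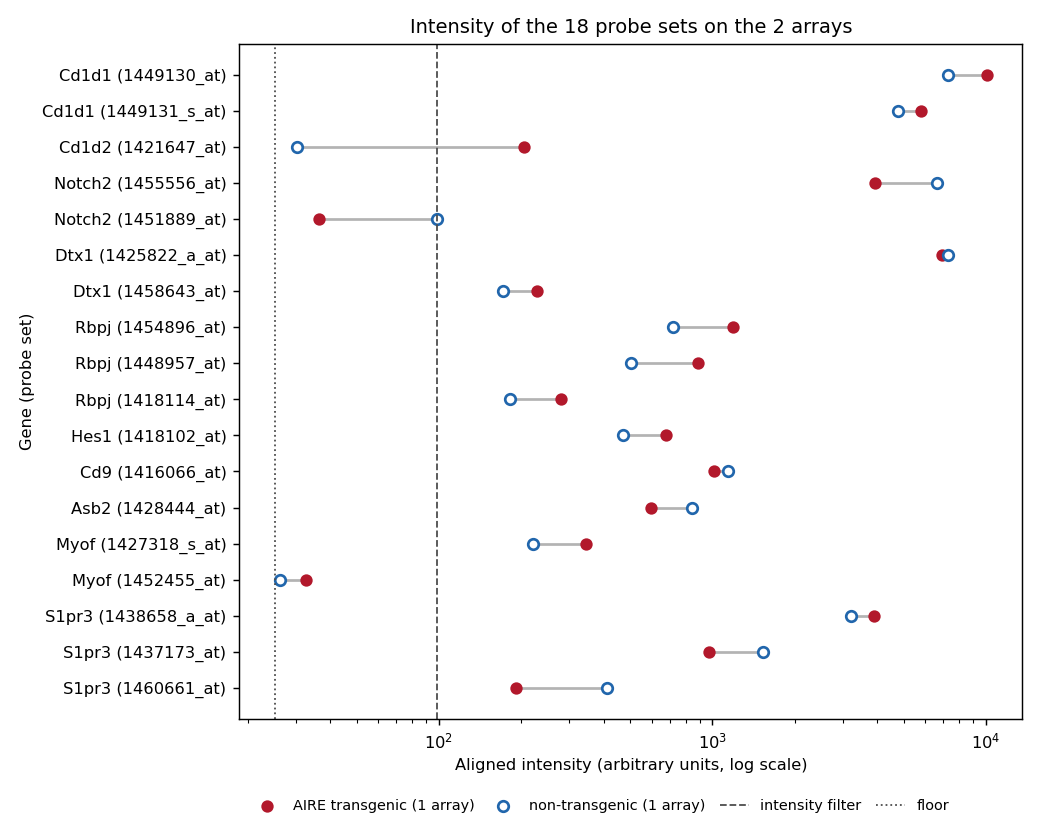
Aligned intensity (arbitrary units, log axis) of each of the 18 probe sets, 1 row each, with filled points for the AIRE transgenic array and open points for the non-transgenic array. Dashed and dotted lines mark the filter at 98.8 and the floor at 25.1. Cd1d2 spans the widest gap, from 30.3 to 205, and 1 probe set each of Notch2 and Myof lies under the filter on both arrays.

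Scatter depended on brightness, and this bears on how each member can be read. In the dimmest 25% of the probe sets above the filter, 11.0% passed 2-fold on the higher side and 10.7% on the lower, with an SD of the log2 ratio of 0.91. In the brightest 25% these shares were 1.60% and 1.13% and the SD was 0.43. Probe sets of the same gene give a further measure of error. Across 5172 genes with more than 1 probe set above the filter, the highest and lowest ratio of a gene lay a median of 0.58 apart on the log2 scale.

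**Figure D2:**
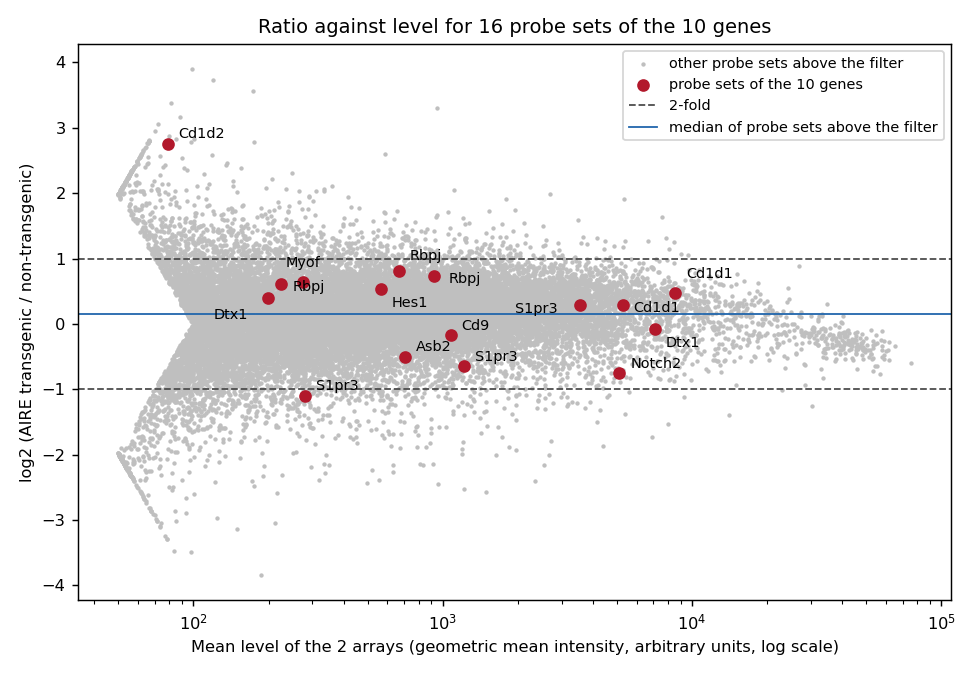
Log2 ratio of transgenic over non-transgenic (vertical) against the geometric mean intensity of the 2 arrays (horizontal, log axis, arbitrary units) for all probe sets above the filter in grey and the 16 member probe sets in red. Dashed lines mark 2-fold and the solid line the median of 0.15. Cd1d2 sits among dim, widely scattered probe sets, and Notch2 lies toward the lower edge of a bright, narrow part of the cloud.

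The Cd1d pair comes first, as the molecules that present lipid. In RefSeq's annotation of GRCm38.p6, made from C57BL/6J mice, Cd1d2 directly precedes Cd1d1 on the chromosome and is classed as a transcribed pseudogene, while Cd1d1 is protein-coding. NOD is another strain, and its own alleles were not analysed here.

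The Cd1d1 probe set 1449130_at was at 10085 with the transgene and 7261 without it, a ratio of 0.47. The second, 1449131_s_at, whose suffix marks probes shared between transcripts, was at 5810 and 4764, a ratio of 0.29. Both were higher on the transgenic array, and their ratios lay 0.19 apart, closer than in 76.1% of genes with the same number of probe sets. In the brightest 25%, to which both belong, 77.2% and 58.0% of probe sets had a lower ratio than these, so both lay within the spread of bright probe sets. After quantile normalization the ratios were 0.33 and 0.09.

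Cd1d2 was read by 1421647_at alone, at 205 with the transgene and 30.3 without it (192.9 and 32.0 as deposited), a ratio of 2.76. The non-transgenic value lay below the filter and near the floor, so the size of the fold is poorly fixed. A pseudocount of 16 in place of the floor brought the ratio to 2.25. The probe set passed the filter through its transgenic value alone. Because the 2 genes are near-identical copies, which of them each probe set reads is uncertain, and the 3 probe sets gave ratios from 0.29 to 2.76.

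Notch2 is the receptor whose loss in B cells removes the marginal zone lineage. Its brighter probe set, 1455556_at, was at 3928 with the transgene and 6643 without it, a ratio of -0.76. This is short of 2-fold, but only 2.40% of the probe sets in the brightest 25% had a lower ratio. The other probe set, 1451889_at, was at 36.5 and 98.6, just under the filter on the non-transgenic array, with a ratio of -1.43 that was not counted. Both Notch2 probe sets were lower on the transgenic array.

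Rbpj encodes the DNA-binding protein to which cleaved Notch binds, and without Notch it acts as a repressor. Probe set 1454896_at was at 1193 with the transgene and 717 without it (0.74), 1448957_at at 884 and 505 (0.81) and 1418114_at at 279 and 182 (0.61). All 3 were higher on the transgenic array and lay within 0.19 of each other, a narrower range than in 93.3% of the 1335 genes with 3 probe sets above the filter. None reached 2-fold. Notch2 and Rbpj, receptor and nuclear partner, thus pointed in opposite directions.

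The Notch-responsive members did not move as a group. Dtx1 encodes Deltex1, an E3 ligase of the Notch pathway that is enriched in marginal zone B cells. Its probe set 1425822_a_at was at 6942 with the transgene and 7303 without it (-0.07), and the dimmer 1458643_at was at 228 and 172 (0.40). The 2 differed in sign, by 0.48 on the log2 scale. Hes1, a basic helix-loop-helix repressor and a direct Notch target in many tissues, was at 679 and 470.3 in 1418102_at (0.53). Asb2, the substrate-binding subunit of an E3 ligase and another gene that Notch can induce, was at 594 and 840.0 in 1428444_at (-0.50), so Hes1 was higher and Asb2 lower on the transgenic array.

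Promoters of the set are shown for the letters that RBPJ binds. RefSeq's promoter table for GRCm38.p6 matched 7 of the 10 members with 9 windows of 250 bases before a gene start, and no window was taken for Cd1d1, Cd1d2 or Hes1. The core of the RBPJ site, TGGGAA on either strand, occurred in windows of 2 members, Rbpj itself and Cd9, and in 21.6% of all 32851 promoter windows of that length. Both are printed 5′ to 3′ in the direction of the gene, the first window of Rbpj at chr5:53590096-53590345 on the plus strand and that of Cd9 at chr6:125494761-125495010 on the minus strand, with each core match in capitals.
Rbpj: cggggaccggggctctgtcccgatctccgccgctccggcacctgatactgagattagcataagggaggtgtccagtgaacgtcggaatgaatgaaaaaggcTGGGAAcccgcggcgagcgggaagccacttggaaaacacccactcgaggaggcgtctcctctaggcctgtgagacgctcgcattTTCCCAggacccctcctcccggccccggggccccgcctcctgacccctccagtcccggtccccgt
Cd9: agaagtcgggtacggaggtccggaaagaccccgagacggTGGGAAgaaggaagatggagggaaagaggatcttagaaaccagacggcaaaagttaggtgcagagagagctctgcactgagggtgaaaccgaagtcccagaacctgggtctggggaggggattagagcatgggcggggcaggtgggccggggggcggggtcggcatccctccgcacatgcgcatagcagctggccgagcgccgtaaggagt

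In Rbpj the matches began at -149 on the gene's strand and at -65 on the other, counted back from the gene start, and in Cd9 the match began at -211 on the gene's strand. The second Rbpj window overlaps the first and holds the same match at its own -205. Sites for Hes-type proteins, CACGNG on either strand with CACGTG among its matches, occurred in windows of Notch2, Dtx1, Asb2 and Myof, and in 23.5% of all windows. CACGTG itself occurred in 1 member window, that of Asb2, and in 6.02% of all. These matches describe letters, and binding was not measured.

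The remaining members belong to the membrane. Cd9 is a tetraspanin carried by marginal zone and B-1 B cells and by platelets. It was at 1013 with the transgene and 1144 without it in 1416066_at, a ratio of -0.17. Myof encodes myoferlin, a ferlin of membrane fusion and repair. Its probe set 1427318_s_at, marked as shared between transcripts, was at 345 and 221 (0.64), and 1452455_at lay under the filter at 32.7 and 26.2.

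S1pr3 is a receptor for sphingosine 1-phosphate, the lipid that with S1pr1 holds marginal zone B cells in place against chemokines of the follicle. Its brightest probe set, 1438658_a_at, was at 3911 with the transgene and 3212 without it (0.28). The next, 1437173_at, was at 975 and 1526 (-0.65), and the dimmest, 1460661_at, at 192 and 410.5 (-1.10). One probe set was higher on the transgenic array and the others lower, and they spread over 1.38, more than in 89.7% of genes with 3 probe sets above the filter. After lowess on the level the brightest gave 0.07 and the others -0.85 and -1.18. The direction of S1pr3 therefore depends on the probe set read, and the 2-fold call rests on the dimmest of them.

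**Figure D3:**
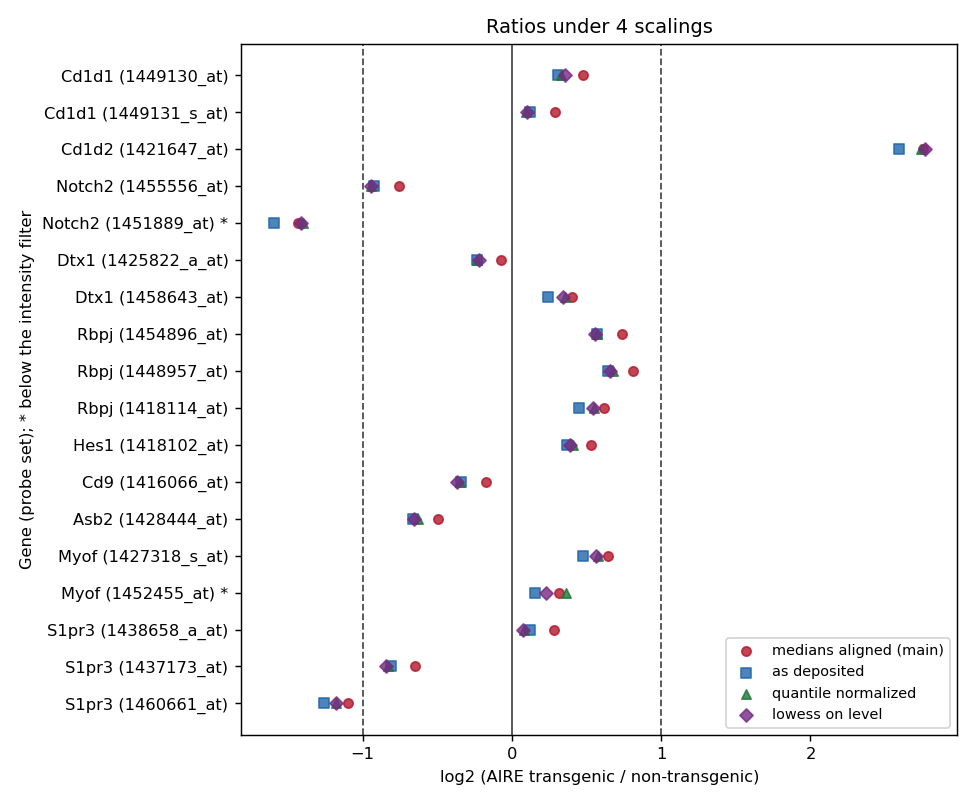
Log2 ratio of transgenic over non-transgenic for each of the 18 probe sets, 1 row each, under 4 ways of scaling the 2 arrays, 1 symbol each. Dashed lines mark 2-fold and asterisks the probe sets under the filter. Each of the 16 probe sets above the filter keeps its sign under all 4, and the aligned medians usually give the highest value.

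The other genes of the Notch pathway were read from lists by role, 1 probe set of highest mean level per gene. Of 55 genes listed, 50 had a probe set naming that gene alone and 44 of these lay above the filter. Past 2-fold, 5 of the 44 (11.4%) were higher and 3 (6.82%) lower, against 4.43% and 3.19% of all 10778 genes above the filter. Of those called, Heyl passed the filter through its transgenic value alone, and Jag1 and Maml2 through their non-transgenic values alone. These shares therefore rest in part on dim probe sets. The list's median ratio was 0.23 and that of all genes 0.19. The split of higher and lower genes turned with the scaling, to 3 and 5 without the alignment or after lowess and to 3 and 4 after quantile normalization. Over all genes, 58.1% of those past 2-fold were higher with the alignment and 36.2% without it.

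Among receptors, Notch1, which directs T cell fate and is also made by B cells, was at 956 with the transgene and 380.2 without it (1.33), and the second probe set gave 0.87. Its direction was opposite to that of Notch2. Notch3 was at 237 and 165 (0.52), and the remaining receptor of the list lay under the filter. Of the ligands, Dll1, the one that engages Notch2 for marginal zone fate, was at 173 and 284 (-0.71). Jag2 was at 115 and 131 (-0.18), and Jag1 at 25.9 and 113 (-2.13), its transgenic value near the floor and its other 2 probe sets under the filter. All 3 ligands above the filter were lower on the transgenic array.

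Fringe enzymes add sugars to Notch that favour Delta over Jagged ligands, and Lfng and Mfng act jointly in marginal zone B cell formation. Lfng was at 455 with the transgene and 1353 without it (-1.57), and its other probe set gave -3.01. It stayed at least 2-fold lower under the 3 other scalings, from -1.73 to -1.74. Mfng was at 1153 and 1330 (-0.21), and Pofut1, which adds the O-fucose that fringe extends, at 1380 and 1153 (0.26). The 2 other Pofut1 probe sets above the filter disagreed, with -0.12 and 1.81. By the probe set of highest mean level, only Lfng of the 5 glycosylation genes above the filter passed 2-fold.

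In the cleavage step, Adam10 was at 6641 with the transgene and 3781 without it (0.81), and its other 2 probe sets above the filter were also higher (0.68 and 1.13). Of gamma-secretase, Psenen was at 7543 and 5562 (0.44) and Aph1b at 352 and 155 (1.18), where Aph1b and Aph1c are close paralogs that a probe set may not separate. Chosen after their values were seen, 2 other subunits were lower on the transgenic array, the presenilin Psen2 at 808 and 1428 (-0.82, with -2.11 in its other probe set) and nicastrin, Ncstn, at 539 and 977 (-0.86). The subunits of gamma-secretase thus did not share a direction. The nuclear cofactors had a median of 0.39, with 9 of 11 genes above 0 and 7 of 11 above the median of all genes, and 2 of the 9 fell just below 0 under each of the 3 other scalings. The counts also depend on the probe set, in genes chosen after their values were seen. Kdm5a (0.44) had 4 other probe sets above the filter, all below 0 (-0.36 to -0.04), and Maml1 (0.39) had 1 (-0.27). The 2 others of Kat2b and the 2 of Crebbp stayed above 0. The corepressor Ctbp1 was at 5990 and 5487 (0.13), turning to between -0.04 and -0.07 under the 3 other scalings, and the acetyltransferase Crebbp at 5411 and 3386 (0.68). Maml2, a Mastermind coactivator, was at the floor on the transgenic array and at 113 on the other, at least 4.49-fold lower.

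Of 8 targets above the filter, 2 passed 2-fold, both on the higher side, against 4.43% higher and 3.19% lower over all genes. Heyl, a Hes-related repressor, was at 257 with the transgene and 78.7 without it (1.71), with the latter under the filter. The 2 other Heyl probe sets lay under the filter on both arrays. Dtx2, a relative of Dtx1, was at 1197 and 581 (1.04) with the second probe set at 0.37, and fell short of 2-fold under the 3 other scalings (0.87 to 0.89). Dtx3l, a ligase that partners Parp9, was at 1998 and 1152 (0.79) and the growth regulator Myc at 1590 and 1937 (-0.28). Among genes of Notch turnover, Mib1, a ligase that acts on Notch ligands, was at 845 and 408 (1.05), again under 2-fold by the 3 other scalings (0.89 to 0.92), and its other probe sets gave -0.35 and 1.16. The Notch ligases Itch (0.68) and Fbxw7 (0.48) were higher on the transgenic array by less.

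**Figure D4:**
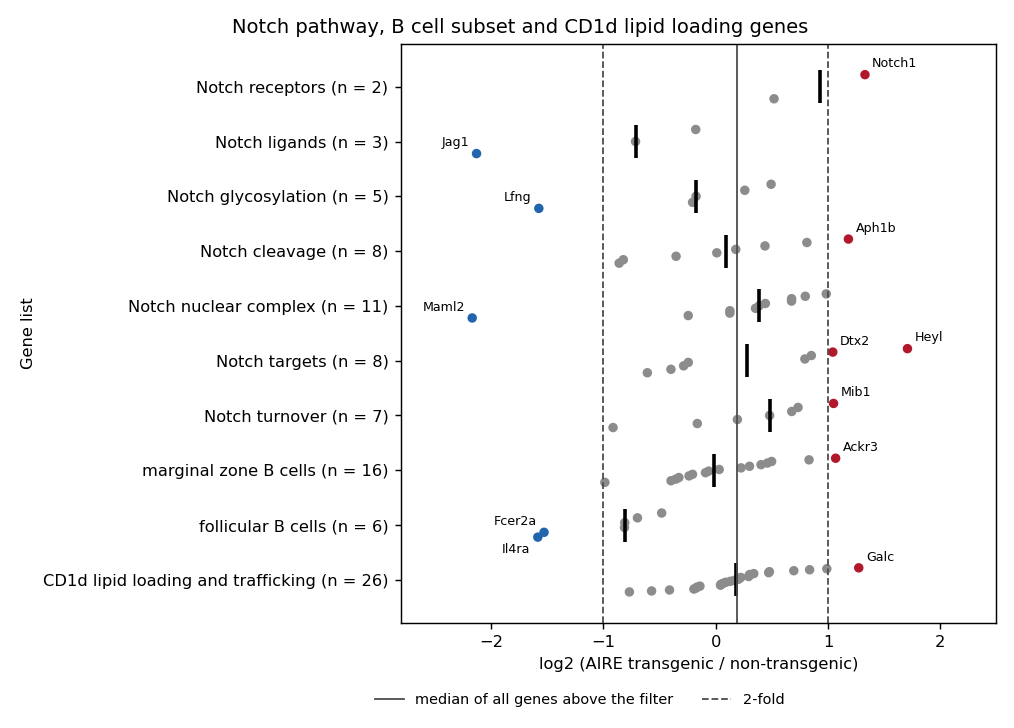
Log2 ratio of transgenic over non-transgenic for genes above the filter in 10 lists, 1 point per gene at its probe set of highest mean level, with black bars for list medians. Genes past 2-fold, higher (red) or lower (blue), are named, dashed lines mark 2-fold, and the thin line marks the median of all genes, 0.19. Notch pathway genes lie on both sides, the 6 follicular genes all lie below 0, and the marginal zone genes scatter around -0.02.

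Other genes of marginal zone B cells, 18 listed without the members and 16 above the filter, had a median of -0.02, with 8 above 0 and 8 below. It was -0.18 to -0.20 under the 3 other scalings. The median of all genes was 0.19, with 7 of the 16 above it, and 0.01 to 0.05 under those scalings. The list's median thus lay below that of all genes under each scaling. Of the 16, only 1 (6.25%) was past 2-fold, on the higher side, against 4.43% of all genes. This was Ackr3, a scavenging receptor for Cxcl12, at 1263 with the transgene and 602 without it (1.07). Its ratio fell to between 0.89 and 0.91 under the 3 other scalings. Chosen after their values were seen, Cr2, which encodes CD21, was at 7572 and 9970 (-0.40), and S1pr1, the partner of S1pr3 in holding cells in the marginal zone, at 1622 and 3212 (-0.99). S1pr1 was the 1 gene of the list past 2-fold on the lower side under each of the 3 other scalings. The brightest of the list differed less, Plac8 with a ratio of -0.35 and Mzb1, a chaperone for IgM assembly, with 0.30.

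Follicular B cell genes, the alternative fate, had a median of -0.81 over 6 genes with all 6 below 0. Fcer2a, which encodes the follicular marker CD23, was at 4736 and 13654 (-1.53, and -2.16 in its other probe set), the interleukin 4 receptor chain Il4ra at 967 and 2895 (-1.58) and the migration regulator Klf2 at 8918 and 14445 (-0.70). The 2 other Il4ra probe sets above the filter disagreed, with -2.16 and 0.34. Both subset lists shared arrays and RNA with the B cell defining genes. Like the follicular genes these were all below 0, with a median of -0.41 over 7. Cd79a was at -1.26, Ms4a1 at -0.38 and Ptprc at -0.33, with -0.05 in the other Ptprc probe set. Of the marginal zone list, 8 of 16 were above 0. A link between the lists was not tested. All 7 lay above the filter on both arrays.

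For lipid loading and traffic of CD1d, 26 genes lay above the filter with a median of 0.18, the same as that of all genes to within 0.01. Past 2-fold was 1 of the 26 (3.85%), on the higher side, near the 4.43% of all genes. That gene was Galc, a lysosomal galactosylceramidase, at 167 and 69.2 (1.27), the latter under the filter. The light chain B2m, which CD1d needs at the surface, had a ratio of -0.17 that turned to 0.08 after quantile normalization, and Cd74, the invariant chain that can guide CD1d to endosomes, one of -0.77. Mttp, the transfer protein that loads lipid onto CD1d, was dim at 69.9 and 104 (-0.57), and was chosen after its values were seen.

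Several members are also made by other cells, Notch2 by dendritic cells, Cd9 by platelets and Myof by macrophages. The summed intensity of 11 macrophage and monocyte markers was 12610 with the transgene and 11449 without it, that of 10 dendritic cell markers 22770 and 21758, and that of 6 platelet markers 1117 and 1020. Of these markers, 9 of 11, 8 of 10 and 4 of 6 lay above the filter, and 1 of those was past 2-fold, Batf3 of the dendritic list (-1.36). Above 0 were 3 of the 9 (median -0.07), 5 of the 8 (0.28) and 3 of the 4 (0.42). The macrophage sum was higher although most of its markers were not, with Csf1r at 4090 and 2584 (0.66). The dendritic sum was carried by Irf8 at 13537 and 14093 and Tcf4 at 5499 and 4476. Markers named in this and the next paragraph beyond the brightest of each list were chosen after their values were seen. Marco, a macrophage receptor, was at the floor on both arrays. The brightest of each were Lyz2 (-0.06), Irf8 (-0.06) and Pf4 (0.55), and B cells make Irf8 too.

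Markers of natural killer cells and of invariant natural killer T cells, only the latter partners of CD1d, were read as 1 list that does not separate them. They summed to 8458 and 6030 over 11 genes, with a median of 0.55. Past 2-fold on the higher side were 2 of 11, against 4.43% of all genes, Klre1 at 1.29 and Gzma, the brightest, at 1.02, and Gzma fell to between 0.80 and 0.85 under the 3 other scalings. The list did not share a direction, with 7 of 11 above 0. Those below 0 included Il2rb (-0.74, and -1.20 in its other probe set) and Gzmb (-0.61). Neutrophil markers summed to 9212 and 8879 over 7 genes, a sum carried by S100a8 (-0.17) and S100a9 (-0.04). The median of the 6 above the filter was 0.87, and 2 were past 2-fold on the higher side, Ngp at 1.45 and the dim Mpo at 1.06, the latter 0.90 without the alignment. T cell markers summed to 2207 and 2031 over 9. The brightest, Il7r, was at 0.43, but the median of the 7 above the filter was -0.20, with 3 above 0 and with the dim Cd4 (2.01) and Thy1 (-1.04) past 2-fold. Above the filter lay 5 of 5 plasma cell, 3 of 7 stromal and endothelial and 1 of 3 erythroid markers, none of them past 2-fold, while under it the stromal Pdgfrb gave 1.26 and Col1a2 -1.12. Plasma cell markers summed to 30502 and 34471 over 5 with Jchain at -0.37, stromal and endothelial markers to 1742 and 1799 over 7 with Pecam1 at -0.12, and erythroid markers to 120 and 161 over 3 with Slc4a1 at -0.43 and both Hba-a1 and Alas2 at the floor. Of the markers the sort gated out, Thy1 was dim at 101 and 208, and Itgax, which encodes CD11c, was above the filter on both arrays at 804 and 670.4. The part of these other cells in the members' ratios was not tested.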

How the data were processed

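Per the labels' protocols, RNA was prepared with a High pure kit (Roche), and cDNA was fragmented and end-labelled with biotin for an Affymetrix array. The deposited values are linear intensities, 1 per probe set and array, processed by the authors, with software and scaling not given in the sources used here. Of 45101 probe sets the 64 controls were set aside, and only probe sets with 1 symbol in the platform's table were named. Since the log2 medians differed by -0.16, past a limit of 0.1, the arrays were multiplied by 1.06 (transgenic) and 0.947 (non-transgenic) before floor, filter and log2. A listed gene was read by its probe set of highest mean level. With 1 array per group no test was possible, calls mean past 2-fold, and precision is limited by the number of arrays.

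The members and gene lists were chosen with earlier results of these data known. Named genes were all members, of each Notch, B cell and CD1d list the genes past 2-fold and the 2 brightest, and the brightest of each other-cell list, and any other is said to be chosen after its values were seen. The steps were tested on simulated data, with known folds put into brighter genes only and with less scatter than on these arrays. That test therefore does not cover calls on dim probe sets. Alternatives were no scaling, quantile normalization, lowess, other floors, filters, folds and probe set choices. Python 3.11.15, numpy 2.4.6, pandas 2.3.3, statsmodels 0.14.6 and matplotlib 3.10.9 were used.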

Additional observations from a re-analysis of the deposited data

How the results depend on the processing

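Of 90 ratios of the 18 member probe sets under 5 other scalings and floors, none of the called ones changed sign and none moved by as much as 0.62, the SD of the log2 ratio over probe sets above the filter, which stood in for a replicate spread. Part of this was fixed in advance. With the lower floor the 18 ratios could not move, as no member value lay under 25.1. Without scaling all 18 shifted by the same -0.16. The count of member probe sets at least 2-fold higher was 1, and it was 0 when both values had to pass the filter or the filter stood at the 75th percentile, which leave out Cd1d2. At 1.5-fold it was 5, from 3 genes and with 3 of Rbpj, against 17.1% of all probe sets above the filter. The count at least 2-fold lower was 1, and it was 2 without scaling, after lowess and with no filter on low values, where the dim Notch2 probe set joined, 0 with the filter at the 75th percentile and 3, from 2 genes, at 1.5-fold, against 10.5% of all. Over 11 alternatives the median ratio ranged from 0.06 to 0.37 for the Notch pathway, from -0.20 to 0.00 for marginal zone genes and from 0.02 to 0.21 for CD1d lipid loading. The median of all genes moved as well, from 0.01 without scaling to 0.24 with the filter at the 75th percentile. Dim probe sets, such as those of Cd1d2, Jag1 and Maml2, carry the largest scatter, and without a second array per group no difference can be set against variation between mice.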
